A study of Drosophila melanogaster with 24 samples.

Results

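Juvenile hormone genes were followed in Drosophila melanogaster that lack Su(Hw), the zinc finger protein that binds the gypsy insulator. The genes were 7 in number, taken by symbol or CG number: Jhbp1 (CG1124), Jhbp2 (CG2016), Jheh1, Jheh2, Jheh3, Jhe and Met. Of these, 5 had a probe on the long oligonucleotide array, 1 probe each among the 14444 analysed, and Jheh1 and Jheh3 were not analysed here. Of the 24 arrays, 12 carried whole larval RNA and 12 carried RNA from wing imaginal discs, the epithelial sacs from which adult wings develop. On each array a genotype was set against pooled wild-type RNA from that tissue, and 4 arrays stood for each genotype in each tissue.

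The null, su(Hw)/Df, carried a chromosome with the su(Hw)v allele and a p[CasX/K] transposon over the deletion Df(3R)ED5644, with w in its genotype. In su(Hw)/+ the su(Hw)v chromosome lay over an Oregon R chromosome, and in Df/+ the deletion did. The null therefore lacks the genes within the deletion on the chromosome that carries it, as Df/+ does, and it carries the transposon, as su(Hw)/+ does. Nulls came from a cross of both mutant stocks and heterozygotes from outcrosses to Oregon R, so genotype and genetic background cannot be told apart. Animals of each genotype were collected as soft white prepupae, and were told from the other progeny by the absence of Tubby, the marker of the balancer chromosome. A tube held 10 or 20 larvae, and a disc extraction 6 wing discs by the sample labels. Each tissue had a single wild-type pool, so comparisons with it do not carry the variation among wild-type animals. In whole animals, fewer cells of a type and less RNA per cell cannot be told apart.

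Juvenile hormone is a sesquiterpenoid made by the corpora allata, the endocrine glands beside the insect brain. While its titre is high, larval moults keep their larval character, and its decline before metamorphosis lets ecdysone start pupal development. In the haemolymph the hormone travels on carrier proteins, and the genes named Jhbp encode a family of secreted proteins related to takeout and to the juvenile hormone carrier of moths. Esterases such as Jhe and the epoxide hydrolases encoded by the Jheh genes break the hormone down. Inside cells it binds the bHLH-PAS proteins Met and gce, which act with the coactivator tai on target genes such as Kr-h1.

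Values below are log2 ratios of a genotype to the wild-type pool, and errors are SD over arrays. The su(Hw) transcript itself stood at -2.92 in null larvae and at -2.28 in null discs. Larval arrays held values for 63.1% to 80.8% of the probes and disc arrays for 34.4% to 77.2%. In discs 3 arrays held under 50%, replicate 2 of the null, replicate 2 of su(Hw)/+ and replicate 4 of Df/+. The genotype was in Cy3 on 2 arrays of each group and in Cy5 on the other two, and larval array medians averaged 0.14 in Cy3 and -0.08 in Cy5. In discs 8 of 8 probes for wing disc markers such as vg, nub and ap could be tested against the pool in the null, and in larvae 5 of 8. A ratio to a pool of the same tissue gives no level of a marker, so the purity of the discs is unknown.

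Jhbp1 and Jhbp2 both fell in null larvae. Jhbp1 lay at -1.43, -2.17, -1.57 and -1.22 on the null arrays, at -0.82, -0.70, -0.20 and -0.97 on the su(Hw)/+ arrays and at -0.62, -0.58, -0.92 and -0.63 on the Df/+ arrays. The 4 null values were below all 8 heterozygote values. Means were -1.60 ± 0.41 in su(Hw)/Df, -0.67 ± 0.33 for su(Hw)/+ and -0.69 ± 0.16 for Df/+ (SD, n = 4 each). In limma, fitted to all genotypes of a tissue together, the null was 0.92 below the mean of both heterozygotes (log2 difference -0.92, SE 0.19, adjusted p = 0.0197), a 1.89-fold decrease. Against the pool the null was 3.03-fold lower (limma, adjusted p = 1.72e-05).

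Jhbp2 fell further below the heterozygotes. It lay at -1.64, -1.77, -1.87 and -1.30 in null larvae, at -0.20, -0.35, -0.29 and -0.35 in su(Hw)/+ larvae and at -0.57, -0.28, -0.78 and -0.38 in Df/+ larvae. The null arrays again lay apart from all 8 heterozygote arrays. Means were -1.65 ± 0.25 in su(Hw)/Df, -0.30 ± 0.07 for su(Hw)/+ and -0.50 ± 0.22 for Df/+ (SD, n = 4 each). The difference from both heterozygotes was -1.24 (SE 0.15, limma adjusted p = 0.000453), a 2.37-fold decrease, and the null was 3.13-fold below the pool (adjusted p = 1.51e-06). By p, Jhbp2 ranked 16 and Jhbp1 ranked 136 among the 8197 probes tested against the heterozygotes. An exact permutation test over the arrays (two-sided, 495 splits) gave p = 0.00202 for Jhbp1 and for Jhbp2, the smallest it can give. They were 2 of 8 such tests of the listed genes.

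**Figure D1:**
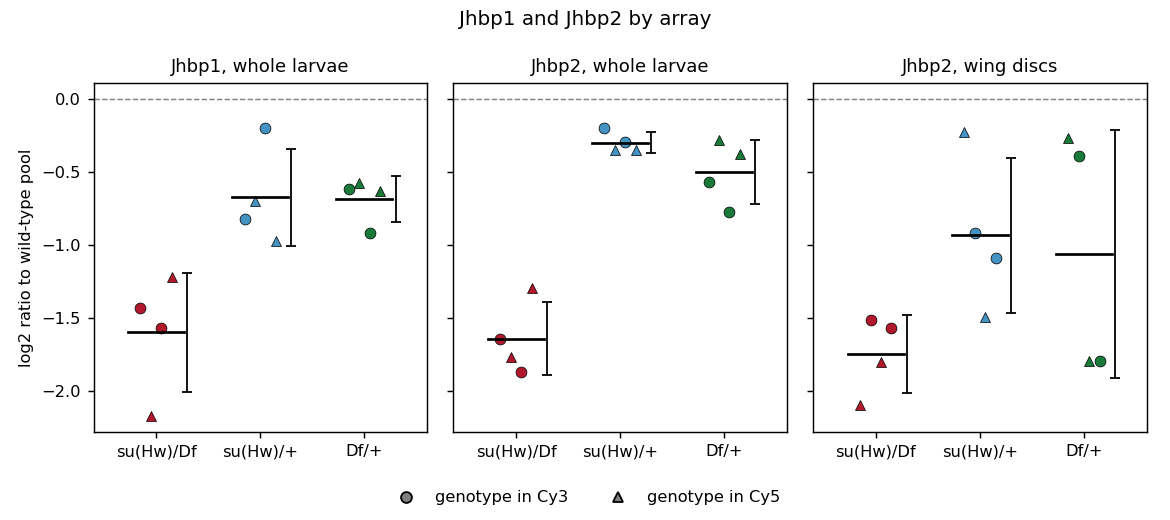
Log2 ratio to the wild-type pool (vertical axis) of Jhbp1 in larvae and of Jhbp2 in larvae and wing discs, 1 point per array, by genotype. Circles have the genotype in Cy3 and triangles in Cy5, horizontal bars are means and error bars the SD (n = 4). In larvae all null points lie below all heterozygote points, and in discs 2 Df/+ points lie within the range of the null.

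Of the listed genes tested against both heterozygotes in larvae, 2 of 4 were called, both lower, where 2.84% of all probes were called and 1.76% were called lower. Against the pool 2 of 4 were called in null larvae, the same pair, with a background of 27.7% in either direction and 13.2% lower. The listed genes were chosen with earlier results of these data known, so these counts are no test of the list against all probes. Within dye orientation the Jhbp1 difference was -0.86 in Cy3 and -0.98 in Cy5, and that of Jhbp2 was -1.30 in Cy3 and -1.19 in Cy5. Against su(Hw)/+ alone and Df/+ alone the adjusted p of Jhbp1 was 0.0529 and 0.0579. The Jhbp1 call was also lost when su(Hw)/Df replicate 2 (adjusted p = 0.0585) or replicate 3 (adjusted p = 0.0531) was left out, while the log2 difference stayed between -1.04 and -0.73 over the 12 arrays left out in turn. The Jhbp2 call was kept in those 12 fits.

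The heterozygotes stood between the null and the pool. Jhbp1 was below the pool in su(Hw)/+ larvae (1.60-fold, adjusted p = 0.00721) and likewise in larvae of Df/+ (1.61-fold, adjusted p = 0.010). Jhbp2 was below it in Df/+ larvae (1.42-fold, adjusted p = 0.0130), and in su(Hw)/+ larvae its ratio of -0.30 did not pass (adjusted p = 0.0799). The Df/+ call of Jhbp2 was lost without Df/+ replicate 3 (adjusted p = 0.0526). Df/+ minus su(Hw)/+ was -0.01 for Jhbp1 (95% interval -0.49 to 0.47) and -0.20 for Jhbp2 (95% interval -0.57 to 0.16), so the order of the heterozygotes was not resolved. Among the listed genes 2 of 5 were called in su(Hw)/+ larvae, Jhbp1 lower and Jheh2 higher, beside 28.3% of all probes in either direction, 13.7% lower and 14.6% higher. In Df/+ larvae 2 of 5 were called, both lower, beside 19.7% of all probes in either direction and 10.3% lower. Between the heterozygotes 0 of 5 were called in larvae by limma, with 1 at an unadjusted p below 0.05 and a background of 0.272% in larvae. In discs 0 of 3 were called, with 0 at an unadjusted p below 0.05 and a background of 0.0169%.

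Jhbp1 and Jhbp2 are neighbours on chromosome arm 3R, with 1486 genes between the pair and su(Hw) in the Release 6 gene table. The study had already named this divergently transcribed pair as changed in the null, with a predicted Su(Hw) site between its genes. The part of that site was not tested here. Of the 6 genes nearest the pair, 3 on either side, Ubc6, Jhbp3 and CG14662 had a probe. Ubc6, a ubiquitin-conjugating enzyme gene, averaged -0.50 ± 0.19 in su(Hw)/Df larvae, -0.53 ± 0.20 for su(Hw)/+ larvae and -0.67 ± 0.31 for Df/+ larvae (SD, n = 4 each). Null and heterozygote larvae differed by 0.10 in Ubc6 (SE 0.16, limma adjusted p = 0.817). Against the pool Ubc6 was called lower in null, su(Hw)/+ and Df/+ larvae, where 13.2%, 13.7% and 10.3% of all probes were called lower. In discs its null minus heterozygote difference was 0.56, at an unadjusted p below 0.05 in limma but not called. Jhbp3, the next member of the Jhbp family, had 0 values in the null and in su(Hw)/+, and CG14662 had too few values in the heterozygotes for that test.

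**Figure D2:**
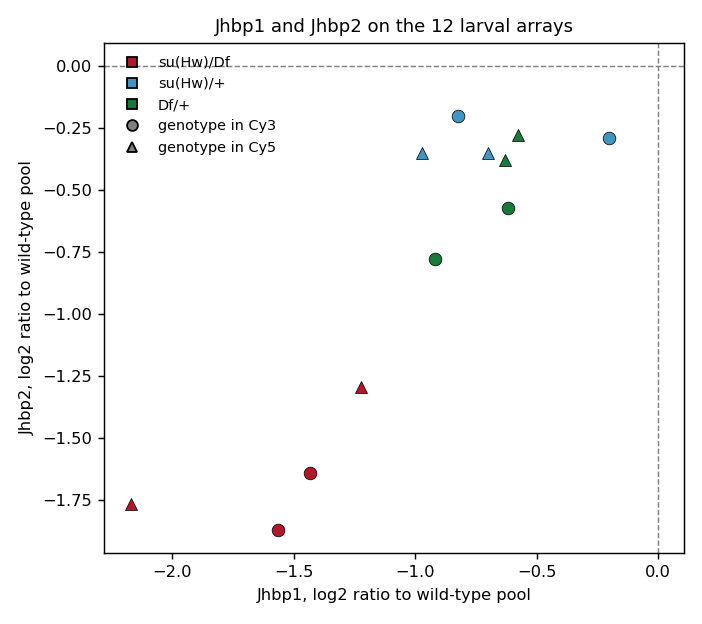
Jhbp1 (horizontal axis) against Jhbp2 (vertical axis), both as log2 ratio to the wild-type pool, on the 12 larval arrays, coloured by genotype, with circles for the genotype in Cy3 and triangles for Cy5. The 4 null arrays lie at the lower left, apart from the 8 heterozygote arrays.

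In the plot of Jhbp1 against Jhbp2, the 4 null larval arrays lay below the 8 heterozygote arrays on both axes. Within the 8 heterozygote arrays Pearson's r was 0.32 (exact permutation p = 0.430) and Spearman's rho 0.21 (exact permutation p = 0.619). Without the 2 arrays farthest from the median of Jhbp1, r was 0.42. These 2 coefficients were the relations of this kind computed, and neither passed.

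In wing discs Jhbp2 was low in each genotype. It lay at -2.10, -1.51, -1.81 and -1.57 in su(Hw)/Df, at -0.22, -0.92, -1.50 and -1.09 in su(Hw)/+ and at -0.27, -0.39, -1.80 and -1.80 in Df/+. The null arrays were close to each other, whereas the Df/+ arrays fell into a pair near 0 and a pair within the null range. Means were -1.75 ± 0.27 in su(Hw)/Df, -0.93 ± 0.53 for su(Hw)/+ and -1.06 ± 0.85 for Df/+ (SD, n = 4 each). Against the pool the null was 3.36-fold lower (limma, adjusted p = 0.00155), and this call held with each of the 12 disc arrays left out (adjusted p at most 0.0145). It was the 1 of 3 listed genes tested that was called in null discs, where 0.873% of all probes were called and 0.526% lower.

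Against both heterozygotes, Jhbp2 in null discs was -0.75 (SE 0.31, 95% interval -1.42 to -0.08), with an unadjusted p of 0.0305 and an adjusted p of 0.923 in limma. The exact permutation test over the 12 disc arrays gave p = 0.0525 (two-sided). Of 3 listed genes tested 0 were called by limma in this comparison, 1 of them at an unadjusted p below 0.05. The background was 0.0901% of 5550 probes. Within dye orientation the difference was -0.49 in Cy3 and -1.01 in Cy5, and without the 3 disc arrays with few values, left out after seeing the data, it was -0.95. The heterozygotes did not pass against the pool (adjusted p = 0.229 in su(Hw)/+ and 0.155 in Df/+). In each of them 0 of 3 listed genes were called by limma with Jhbp2 alone at an unadjusted p below 0.05, where 0.595% of all probes were called in su(Hw)/+ and 0.163% in Df/+.

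For Jhbp2, the null minus heterozygote difference in discs minus that in larvae was 0.49 (SE 0.36, 95% interval -0.25 to 1.24, limma adjusted p = 1.00). Of 3 listed genes 0 were called in this test of the tissues, none at an unadjusted p below 0.05, and 0% of 5105 probes were called, with 225 at an unadjusted p below 0.05. The tissues had been normalized separately and labelled by different protocols. Jhbp1 was measured on 3 disc arrays, at -0.25 in su(Hw)/Df, -0.15 for su(Hw)/+ and 0.21 for Df/+, too few for a test.

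Fat body, the tissue that makes many secreted haemolymph proteins, can adhere to dissected discs. Of its 6 defining genes, Lsp2, Fbp1 and Fbp2 had a probe. Their mean log2 ratio per disc array ranged from -2.80 to -0.13 in su(Hw)/Df, from -4.64 to -0.75 for su(Hw)/+ and from -2.19 to -0.83 for Df/+. The mean of the 3 markers was thus below the pool on each of the 12 disc arrays. Single markers were not, with Fbp2 reaching 1.11 and Lsp2 0.31 on null disc arrays. Null discs minus heterozygote discs gave 0.32 for Lsp2, 0.53 for Fbp1 and 1.01 for Fbp2. Of these 3, 0 passed in limma, with 0 at an unadjusted p below 0.05, so their direction was not resolved. In larvae the same mean ranged from 0.65 to 1.20 in su(Hw)/Df, from 0.49 to 1.03 for su(Hw)/+ and from 0.17 to 0.48 for Df/+. All 3 were called higher than the pool in null larvae, beside 27.7% of all probes called in either direction. All 3 were also called higher in su(Hw)/+ larvae (28.3% of all probes), and 1 of 3 in Df/+ larvae (19.7% of all probes). A wider list of 11 fat body genes, 8 with a probe, also held apolpp, Apoltp, Yp1, Yp2 and Yp3. In su(Hw)/Df, su(Hw)/+ and Df/+ discs apolpp averaged -0.78, -1.07 and -0.59, and Apoltp 0.24, -0.04 and -0.01. Yp2 averaged -0.48, 0.02 and 0.08 there, on 2 or 3 arrays. Of this list 0 of 6 tested were called against both heterozygotes in larvae (3 at an unadjusted p below 0.05 in limma), beside 2.84% of all probes. In discs it was 0 of 4. The part of these markers in the disc result was not tested.

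Of the enzymes that break the hormone down, Jheh2 had enough values to be tested in the null and was not called. Jheh2 lay at 0.09, 0.0040, -0.36 and -0.55 in su(Hw)/Df larvae, at 0.77, 0.04, 0.51 and 1.14 in su(Hw)/+ larvae and at -0.08, 0.17, -1.06 and -0.26 in Df/+ larvae. Of the su(Hw)/+ arrays 3 lay above all other arrays and the fourth at 0.04, and the null overlapped both heterozygotes. Means were -0.20 ± 0.30 in su(Hw)/Df, 0.62 ± 0.47 for su(Hw)/+ and -0.31 ± 0.53 for Df/+ (SD, n = 4 each). Against both heterozygotes the null differed by -0.36 (95% interval -0.89 to 0.17, limma adjusted p = 0.516). Jheh2 rose in su(Hw)/+ larvae against the pool (1.53-fold, adjusted p = 0.0375), where 14.6% of all probes were called higher. This call was lost without su(Hw)/+ replicate 1, 3 or 4 (log2 ratio 0.44 to 0.81 and adjusted p 0.0159 to 0.161 over the arrays left out in turn) and with arrays centred on their medians (adjusted p = 0.0666). Df/+ minus su(Hw)/+ was -0.92 for Jheh2, with an unadjusted p of 0.00629 and an adjusted p of 0.226 in limma. In discs Jheh2 averaged -0.14 ± 0.41 in su(Hw)/Df (n = 3), -0.16 ± 0.40 for su(Hw)/+ (n = 4) and 0.03 ± 0.32 for Df/+ (n = 3), with overlapping arrays.

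Jhe, the esterase, had few values. In larvae it lay at -0.41 and 0.11 in su(Hw)/Df, at 0.31, 0.44 and -0.47 in su(Hw)/+ and at 0.42, 0.33 and -0.08 in Df/+. The groups overlapped. With 2 null values the gene was not in the limma test against the heterozygotes, and the exact permutation test (two-sided, 28 splits) gave p = 0.393, with a smallest possible p of 0.0357. In discs 4 arrays had a value for Jhe, between -0.34 and 0.11.

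Met, the receptor, lay at 0.18, 0.88 and 0.82 in su(Hw)/Df larvae (n = 3), at 0.98, -0.24 and 0.55 in su(Hw)/+ larvae (n = 3) and at 1.19, -0.50, -0.15 and -0.25 in Df/+ larvae (n = 4). The null values were above 0 and within the range of the heterozygotes. Null minus heterozygotes was 0.38 (95% interval -0.43 to 1.18, limma adjusted p = 0.673), with opposite signs in Cy3 (-0.14) and Cy5 (1.18, 1 null array). In discs Met averaged 0.13 ± 0.43 in su(Hw)/Df (n = 3), -0.17 ± 0.39 for su(Hw)/+ (n = 4) and -0.13 ± 0.30 for Df/+ (n = 3), with a null minus heterozygote difference of 0.28 (95% interval -0.27 to 0.83). The intervals for Jheh2 and Met in larvae and discs leave room for changes in either direction.

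**Figure D3:**
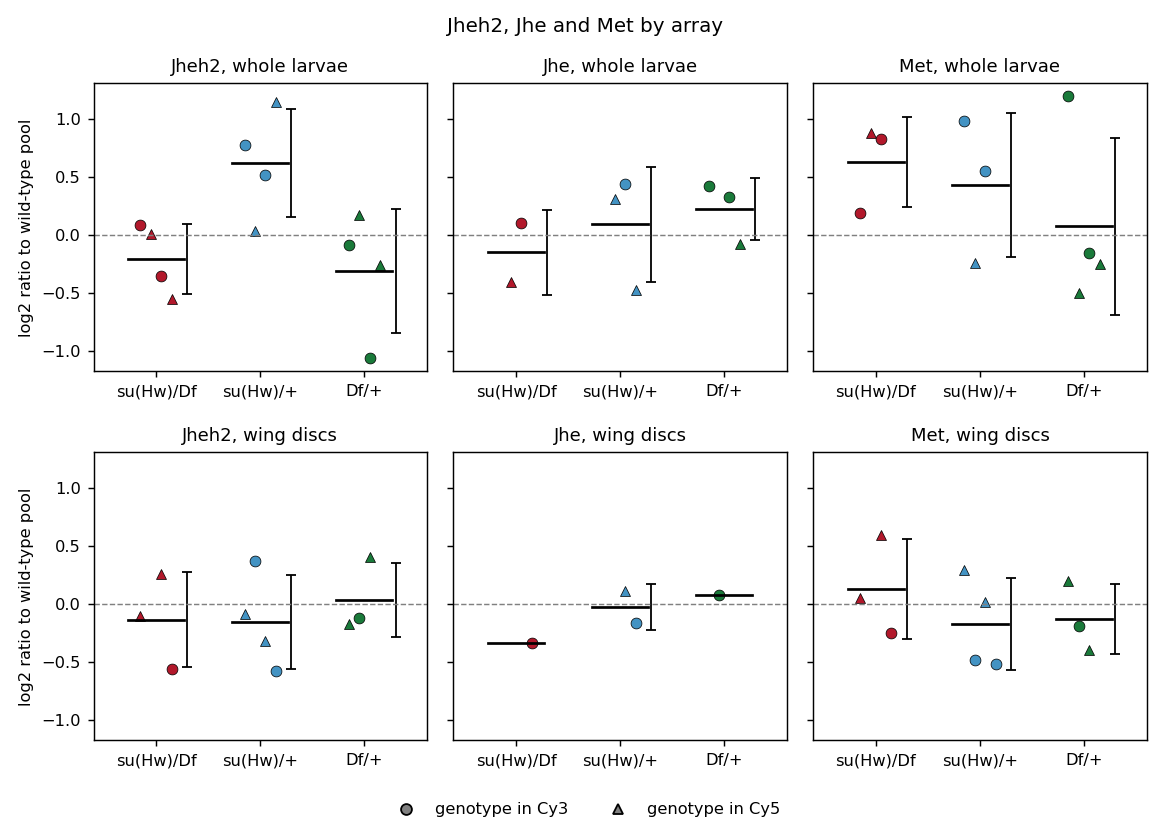
Log2 ratio to the wild-type pool (vertical axis) of Jheh2, Jhe and Met in whole larvae (upper row) and wing discs (lower row), 1 point per array, by genotype. Circles have the genotype in Cy3 and triangles in Cy5, horizontal bars are means and error bars the SD where at least 2 arrays had a value. Null points overlap heterozygote points in the upper row, and the su(Hw)/+ larvae have the highest mean for Jheh2.

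Other genes of the pathway were listed by role. At the 2.84% of all probes called against both heterozygotes in larvae, lists of this size would hold under 1 call on average, so counts of 0 do not set them apart from other probes. Of the remaining Jhbp family (every other Jhbp gene and takeout, 11 of 13 with a probe) 3 were tested against both heterozygotes in larvae and 0 were called, with 0 at an unadjusted p below 0.05 in limma. Their differences were 0.71 for Jhbp7, 0.05 for Jhbp6 and -0.05 for Jhbp13, with a median of 0.05 beside 0.02 over all probes. The other 8 family members had fewer than 3 values in at least 1 genotype and were not tested. Against the pool 1 of 4 family members was called in null larvae, beside 27.7% of all probes. This was Jhbp7, which rose (log2 ratio 1.06 ± 0.91, SD, n = 4, adjusted p = 0.0300), in the direction opposite to Jhbp1 and Jhbp2. Jhbp13 averaged -0.86 ± 1.15 in su(Hw)/Df larvae, -0.65 ± 0.61 for su(Hw)/+ larvae and -0.97 ± 0.83 for Df/+ larvae (SD, n = 4 each) and did not pass in any of them.

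The list for hormone synthesis also held the mevalonate pathway that feeds it and Start1, a putative cholesterol transporter. Of its 13 genes 10 had a probe, and 7 were tested against both heterozygotes in larvae: Fpps, Hmgs, qm, Pmvk, Mvd, Idi and Start1. Of these 7 genes 0 were called (0 at an unadjusted p below 0.05 in limma). Their median was -0.27, and they ran from -0.46 for Start1 to 0.17 for Fpps, the farnesyl pyrophosphate synthase. Against the pool 2 of 7 were called in null larvae, beside 27.7% of all probes. Of these, qm, the geranylgeranyl pyrophosphate synthase, fell by 0.54 on the log2 scale (adjusted p = 0.0107), and Hmgs, the HMG-CoA synthase, rose by 0.63 (adjusted p = 0.00849). Hmgs also rose in su(Hw)/+ larvae (0.70, adjusted p = 0.00432) and in those of Df/+ (0.72, adjusted p = 0.00617). The Hmgs ratio to the pool was therefore of like size in the 3 genotypes, and the null minus heterozygote difference was -0.08 (SE 0.18). The methyltransferase jhamt, which completes the hormone, had a value on 1 null larval array and Cyp6g2 on 0, so neither was tested in null larvae.

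Of the genes of hormone reception and response, 10 were tested in larvae with 16 probes, and 0 were called against both heterozygotes (3 probes at an unadjusted p below 0.05 in limma, median -0.01). Kr-h1, the early target of the hormone receptor, averaged -0.01 ± 0.17 in su(Hw)/Df, 0.02 ± 0.10 for su(Hw)/+ and 0.14 ± 0.11 for Df/+ larvae (SD, n = 4 each). Its null minus heterozygote difference was -0.09 (SE 0.13, limma adjusted p = 0.776). For gce, the second receptor, 2 probes gave -0.64 (adjusted p = 0.242) and -0.55 (adjusted p = 0.370). Against the pool 2 of the 16 probes were called in null larvae, beside 27.7% of all probes. JhI-26, a hormone-inducible gene, fell (-0.96 ± 0.62, SD, n = 4, adjusted p = 0.00520), and usp, the partner of the ecdysone receptor, rose by 0.47 (adjusted p = 0.0296). Against both heterozygotes JhI-26 differed by -0.59 (adjusted p = 0.272). The coactivator tai differed by -0.11 (adjusted p = 0.761).

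In discs 1 gene of the Jhbp family, 5 of synthesis and 8 of reception and response (13 probes) were tested against both heterozygotes. Of these, 0 were called in limma, and 2 probes of reception and response, for br and usp, were at an unadjusted p below 0.05. Medians were -0.05 for synthesis and 0.26 for reception and response, beside 0.10 over all probes. Kr-h1 averaged 0.56 ± 0.61 in su(Hw)/Df discs, 0.58 ± 0.41 for su(Hw)/+ discs and -0.24 ± 0.24 for Df/+ discs (SD, n = 4 each).

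**Figure D4:**
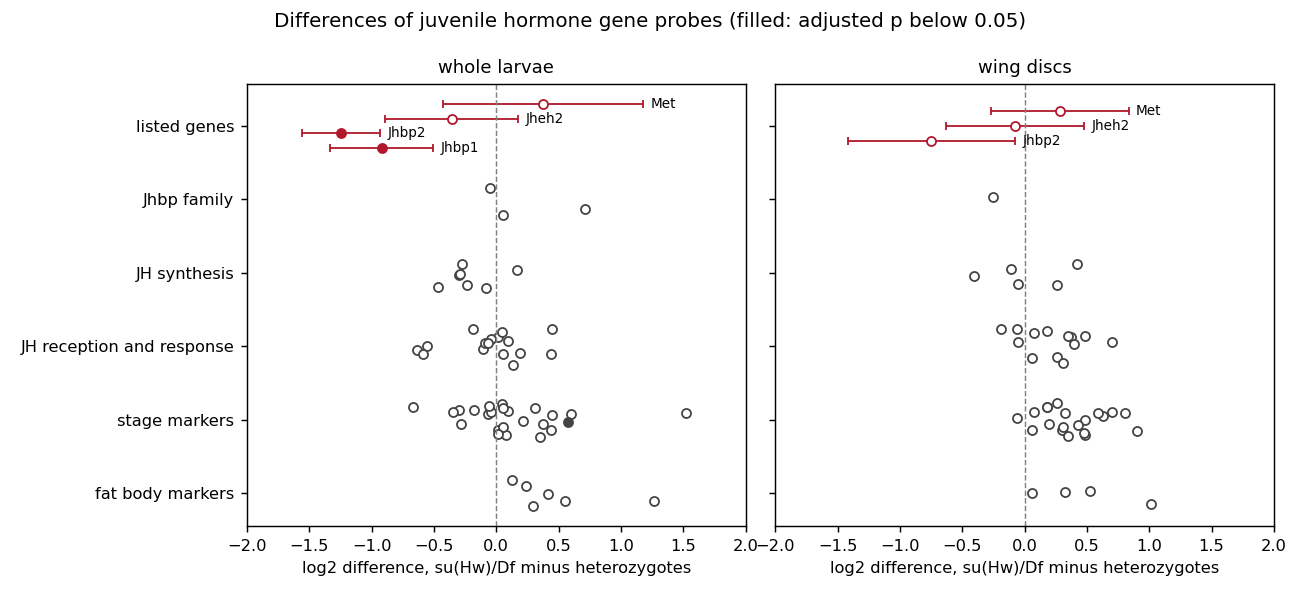
Log2 difference of su(Hw)/Df minus the mean of both heterozygotes (horizontal axis) for each tested probe, by gene list (vertical axis), in larvae and wing discs. Error bars are 95% intervals for the listed genes, and filled points have an adjusted p below 0.05. In larvae the filled points are Jhbp1, Jhbp2 and 1 probe of ImpL2, and in discs no point is filled.

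Markers of the prepupal stage, mostly ecdysone-inducible genes that share br, usp and EcR with the response list, were set beside these values. Of 24 probes for 14 genes tested in larvae, 1 was called against both heterozygotes, a probe of ImpL2 that rose by 0.58 (adjusted p = 0.0394), a share near the 2.84% of all probes. The other 2 probes of ImpL2, whose product binds insulin-like peptides, gave 1.52 (adjusted p = 0.0513) and 0.31 (adjusted p = 0.423). ImpE3 differed by -0.67 (adjusted p = 0.0740). The median over the stage markers was 0.06 in larvae, with 5 of the 24 probes at an unadjusted p below 0.05 in limma. Against the pool, 6 of 24 stage probes were called higher and 2 lower in null larvae, beside 27.7% of all probes in either direction. In su(Hw)/+ larvae 3 of 25 were called higher and 0 lower (28.3% of all probes). In Df/+ larvae 8 of 26 were called higher and 2 lower (19.7% of all probes). In discs 0 of 20 probes were called in limma, 4 were at an unadjusted p below 0.05, and the median was 0.34. Among markers of other cell types, 1 of 4 neuron probes tested, that of elav, was called higher against both heterozygotes in larvae. The tested probes of nSyb and brp were not called. Of 4 midgut genes LysB was called higher and Jon65Aiii and epsilonTry lower, and of 2 muscle genes 0 were called. The background was 2.84% of all probes in either direction and 1.76% lower. Against the pool in null larvae 3 of 4 haemocyte genes were called higher, NimC1 (1.14), PPO1 (2.33) and PPO2 (2.42), while Hml at 0.44 did not pass (limma adjusted p = 0.249). The background was 27.7% of all probes in either direction. In su(Hw)/+ larvae 2 of 4 were called higher, beside 28.3% of all probes in either direction, with PPO1 at 1.15 and PPO2 at 2.155. In Df/+ larvae 1 of the 2 that could be tested was called higher, beside 19.7% of all probes in either direction. Against both heterozygotes 2 haemocyte genes could be tested and 0 were called by limma, with 0 at an unadjusted p below 0.05, the differences being 0.50 for NimC1 and 0.27 for Hml. The part of stage or of these cell types in the Jhbp values was not tested.

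The genes whose ratios ran most like those of Jhbp2 over the 24 arrays, among 4927 probes with at least 20 values, were GM130 (Pearson's r = 0.78, 24 arrays), Cht2 (0.73, 24 arrays), spz6 (0.73, 22 arrays), Drsl5 (0.71, 24 arrays) and CG3097 (0.70, 21 arrays). For Jhbp1 they were l(3)80Fg (0.86, 14 arrays), CG18343 (0.86, 14 arrays), CG30392 (0.85, 15 arrays), CG4455 (0.84, 15 arrays) and CG4953 (0.84, 11 arrays). Since Jhbp1 had 3 disc values, its list rests mostly on larvae. Over the 24 arrays Jhbp2 ranked 348 of 4928 for likeness to Jhbp1 (r = 0.49, 15 arrays), and Jhbp1 had too few values to be ranked for Jhbp2. Over the 12 larval arrays alone, a ranking added after seeing the data, Jhbp1 ranked 24 of 5563 for likeness to Jhbp2 and Jhbp2 ranked 10 for likeness to Jhbp1. The arrays share the wild-type pool and their dye orientation, and the ranking runs over all genotypes together.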

How the data were processed

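The authors hybridised RNA of each genotype and pooled wild-type RNA to FL002 long oligonucleotide arrays, normalized the 12 arrays of a tissue together with VSN and tested them with CyberT (versions not given in the sources used here). They deposited 1 log2 ratio per spot, genotype over pool, with dye swaps already turned. The log base was settled by setting the deposited values against the study's own tables. Spot intensities were not used here, so signal over background is unknown and the number of arrays limits the precision. Larval RNA was labelled directly and disc RNA, by the published methods, after amplification. The published methods also give more discs per sample than the labels.

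Of 15158 probes in 17258 spots, 714 printed in at least 3 spots were left out as controls. Of 14444 analysed, 12531 had 1 gene symbol, 96 several and 1817 none, and 12493 were matched to the Release 6 gene table, used for names, arms and order. There were 0 unused value columns.

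limma 3.58.1 (R 4.3.3) was fitted per tissue to the means of the 3 genotypes with eBayes. A probe was tested where every genotype of the comparison had at least 3 values, and p-values were Benjamini-Hochberg adjusted over all probes tested (threshold 0.05). It was tested on simulated data. Single probes were also tested by exact permutation in Python 3.11.15 with scipy 1.17.1. The study calls the samples independent biological replicates. Alternatives were array centring, dye as a covariate, a replicate block, 2 or 4 values per genotype, robust moderation, each heterozygote alone and each array left out. Fits within a dye and without 3 disc arrays were added after seeing the data. Named genes are the listed genes and examples of lists by role. The listed genes and the lists were chosen with earlier results of these data known.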

Additional observations from a re-analysis of the deposited data

Results flagged for a closer look

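Of 15 groups of 4 arrays, 1 held an array set apart from the others: Jhbp1 in Df/+ larvae, where replicate 3 lay at -0.92 and the other 3 arrays between -0.63 and -0.58 (log2 ratio to the pool). The gap was 0.84 of the group's range. Chance sets apart about 1 in 20 such groups.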

How the results depend on the processing

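Against both heterozygotes in larvae, 2 listed genes were called. The count was 1 against su(Hw)/+ alone and 1 against Df/+ alone, where Jhbp1 had adjusted p-values of 0.0529 and 0.0579, 1 in Cy3 alone and 0 in Cy5 alone, and it ranged from 1 to 2 with each array left out. Against the pool, the count in null discs was 1 and in Cy3 alone 0. In su(Hw)/+ larvae it was 2, and 1 with centred arrays, 0 in Cy3 alone, 0 in Cy5 alone and 1 to 2 with each array left out. In Df/+ larvae it was 2, and 0 in Cy5 alone and 1 to 2 with each array left out. Fits within a dye hold 2 arrays per genotype. These 5 counts stayed within 1.5 times their value in 88 other fits. The count was 0 in the other 6 comparisons and remained 0 in their 126 alternative fits.

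Signs turned in values that had not passed a test. For Jheh2, null minus heterozygotes became 0.10 in larvae against Df/+ alone, and in discs 0.0878 with the replicate block, 0.0187 against su(Hw)/+ alone, 0.12 in Cy5 alone and 0.0103 without the 3 disc arrays with few values (-0.15 to 0.0103 with each array left out). The null disc ratio of Jheh2 was 0.0740 in Cy5 alone, and the Df/+ disc ratio -0.12 with the replicate block. For Met, null minus heterozygotes in larvae was -0.14 in Cy3 alone, the Df/+ larval ratio -0.37 in Cy5 alone (-0.30 to 0.26 with each array left out) and the su(Hw)/+ disc ratio 0.15 in Cy5 alone. Df/+ minus su(Hw)/+ for Met in discs was -0.0690 with the replicate block, -0.25 in Cy5 alone and -0.0583 without the 3 disc arrays (-0.0689 to 0.20 with each array left out). The su(Hw)/+ larval ratio of Jhe was -0.0832 in Cy5 alone. Df/+ minus su(Hw)/+ for Jhbp1 in larvae was 0.0651 with centred arrays and 0.23 in Cy5 alone (-0.11 to 0.15 with each array left out). For Jhbp2 it was 0.0214 in larvae in Cy5 alone and, in discs, 0.12 without the 3 disc arrays (-0.40 to 0.12 with each array left out). The cause was not tested.

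Same-numbered arrays of different genotypes deviated together (r over 0.1) in 10 of 12 larval and 7 of 12 disc pairs (median r 0.21 and 0.18). Arrays of other number and the same dye did so in 8 of 12 and 9 of 12 pairs (median r 0.25 and 0.26), and the numbers were not taken to pair the samples. The replicate block left each count of called genes as it was, with Jhbp1 at an adjusted p of 0.0313 and Jhbp2 at 0.000861 against both heterozygotes in larvae. Each analysed probe had 1 spot, so a median over spots gave nothing to compare.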
